A study of Mus musculus with 80 samples.

Results

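Muscle stem cells (MuSCs) re-isolated from grafts were sequenced from widely different numbers of cells, and 12 post-graft RNA libraries of Experiment 2 are compared here by that number. The number is written in the name of each library. The study's sample table gives larger numbers for the TA grafts of mice 4 and 5, much larger for mouse 5. The numbers in the names were used, and both grafts belong to the high-yield class by either source. Libraries of at most 35 cells form the low-yield class (7 libraries) and libraries of at least 46 cells the high-yield class (5 libraries), out of 80 samples in the series, 40 of them RNA libraries and 20 of these from grafts. The low-yield class holds EOM grafts of mice 4, 3, 6 and 2 with 9, 16, 33 and 35 cells, and TA grafts of mice 3, 6 and 1 with 16, 16 and 26 cells. The high-yield class holds EOM grafts of mice 1 and 5 with 46 and 60 cells, and TA grafts of mice 4, 2 and 5 with 66, 67 and 67 cells. The 35-cell and the 46-cell EOM grafts lie just on either side of the limit. Mice 1, 2 and 4 gave 1 graft to each class, both grafts of mice 3 and 6 had a low yield, and both grafts of mouse 5 a high yield.

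All donors were Tg:Pax7-nGFP mice aged 7 weeks, in which nuclear GFP is driven by Pax7 regulatory sequence, and MuSCs were sorted on GFP from extraocular muscles (EOM) or tibialis anterior (TA). All recipients were Rag2-/-;γC-/- mice, which lack T, B and NK cells but keep myeloid cells, and all recipient TA muscles had been injured with cardiotoxin. EOM and TA cells of a donor went into opposite TA muscles of the same recipient, and GFP-positive cells were sorted again at day 21 by the labels. A pre-graft library of 500 cells of each donor muscle, 12 in all, serves as a comparator. The EOM library of mouse 3 among them failed the study's own quality control as an outlier in its group, and was kept here. In the 8 grafts of Experiment 1 all EOM libraries held at least 100 cells and all TA libraries 24 to 43 cells, so yield and origin cannot be told apart there and these libraries were not used.

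MuSCs, or satellite cells, lie beneath the basal lamina of the muscle fibre and express the paired-box factor Pax7. Myf5, another myogenic factor, is counted here among the satellite cell genes. Committed cells express Myod1, and differentiating cells Myog. Muscle also holds endothelial cells, pericytes and smooth muscle of vessels, fibro-adipogenic cells, Schwann cells, macrophages and the fibres themselves, and a sort on GFP is meant to leave these out.

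The libraries held 5378534 to 9472455 reads in the low-yield class and 5243925 to 9327101 in the high-yield class. Values are log2 RPM, in which the reads of a gene are scaled to a fixed library total (RPM, the usual read-depth scale). Whole reads on genes could be recovered from the deposited values. Non-mitochondrial RPM is the deposited RPM times the ratio of all recovered reads to those outside the mitochondrial genome. The deposited RPM rests on another total than the recovered reads. Sums on this scale are therefore not exact shares of non-mitochondrial reads, and close values can change order with the total used. Fits with mitochondrial reads left out use the same ratio. The TA graft of mouse 3 (16 cells) kept 257139 reads on genes outside the mitochondrial genome, the fewest of the 12. The EOM graft of mouse 2 (35 cells) stood apart from the other 11 libraries on the second principal component, at -199 where the others lay between -62.7 and 91.2. The main sums and ratios, and the limma counts of genes called by class and by cell number on the deposited scale, are given with and without it. Pax7 had reads in all 12 libraries, and Myog had none in any of them.

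The summed level of 15 satellite cell genes was lower in 6 of the 7 low-yield grafts than in every high-yield graft. Sdc4, the most abundant of these genes, made up a large part of the sum in the high-yield grafts. In non-mitochondrial RPM, the sum in low-yield grafts had a lowest value of 1840, a median of 5519 and a highest value of 16711. In the high-yield grafts it was 8073 and 13776 (EOM of mice 1 and 5) and 15215, 14134 and 10734 (TA of mice 4, 2 and 5). The highest low-yield value belongs to the 35-cell EOM graft, and without it the low-yield values end at 6314, below all 5 high-yield values. On the deposited RPM scale the same holds, with a low-yield maximum of 9499 with that graft and 3897 without it, against 4697 to 10844. In the 12 pre-graft libraries the sum in non-mitochondrial RPM ran from 10854, in the EOM library of mouse 3, to 22005 with a median of 19160. In bulk libraries, fewer cells of a type and less RNA per cell cannot be told apart.

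Endothelial and vessel wall genes lay the other way. The sum of 14 endothelial genes in non-mitochondrial RPM had a lowest value of 4125, a median of 21759 and a highest value of 26052 in low-yield grafts. In high-yield grafts it was 16574 and 8649 (EOM of mice 1 and 5) and 11751, 12429 and 5973 (TA of mice 4, 2 and 5). On this scale the classes overlap, also without the 35-cell EOM graft. The 33-cell EOM graft (15833) lies just below the 46-cell EOM graft (16574), and their order depends on the total used for the scaling. The overlap without the 35-cell graft is therefore uncertain. The sum of 10 smooth muscle and pericyte genes had a lowest value of 674, a median of 7278 and a highest value of 11608 in low-yield grafts, and was 2998, 1997, 654, 3607 and 3117 in high-yield grafts in the same order. Without the 35-cell graft, which holds the lowest low-yield value, the other 6 start at 5788 and lie above every high-yield graft. Rgs5 made up most of this sum in the high-yield grafts. On the deposited RPM scale, where mitochondrial reads are part of the total, the classes overlap for both sums with and without that graft.

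The ratio of the satellite cell sum to the endothelial sum does not depend on the scaling of a library. It was 0.173, 0.226, 0.397 and 4.05 in the EOM grafts of 9, 16, 33 and 35 cells, and 0.108, 0.242 and 0.245 in the TA grafts of 16 (mouse 3), 16 (mouse 6) and 26 cells. In the high-yield grafts it was 0.487 and 1.59 in EOM grafts and 1.29, 1.14 and 1.80 in TA grafts. Before grafting it ran from 0.815 to 333 with a median of 25.5, the lowest value coming from the EOM library of mouse 3. With the exception of the 35-cell EOM graft, every low-yield graft had a lower ratio than every high-yield graft. Within mice that gave 1 graft to each class, the low-yield graft had the lower ratio in mouse 1 (0.245 against 0.487) and in mouse 4 (0.173 against 1.29), and the higher one in mouse 2 (4.05 against 1.14). The ratio to the smooth muscle sum was 0.257 to 0.919 in 6 low-yield grafts, 24.8 in the 35-cell EOM graft and 2.69 to 23.2 in the high-yield grafts. Both ratios were chosen after the values were seen and carry no test. They rest in large part on Sdc4 and, for the ratio to the smooth muscle sum, on Rgs5.

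**Figure D1:**
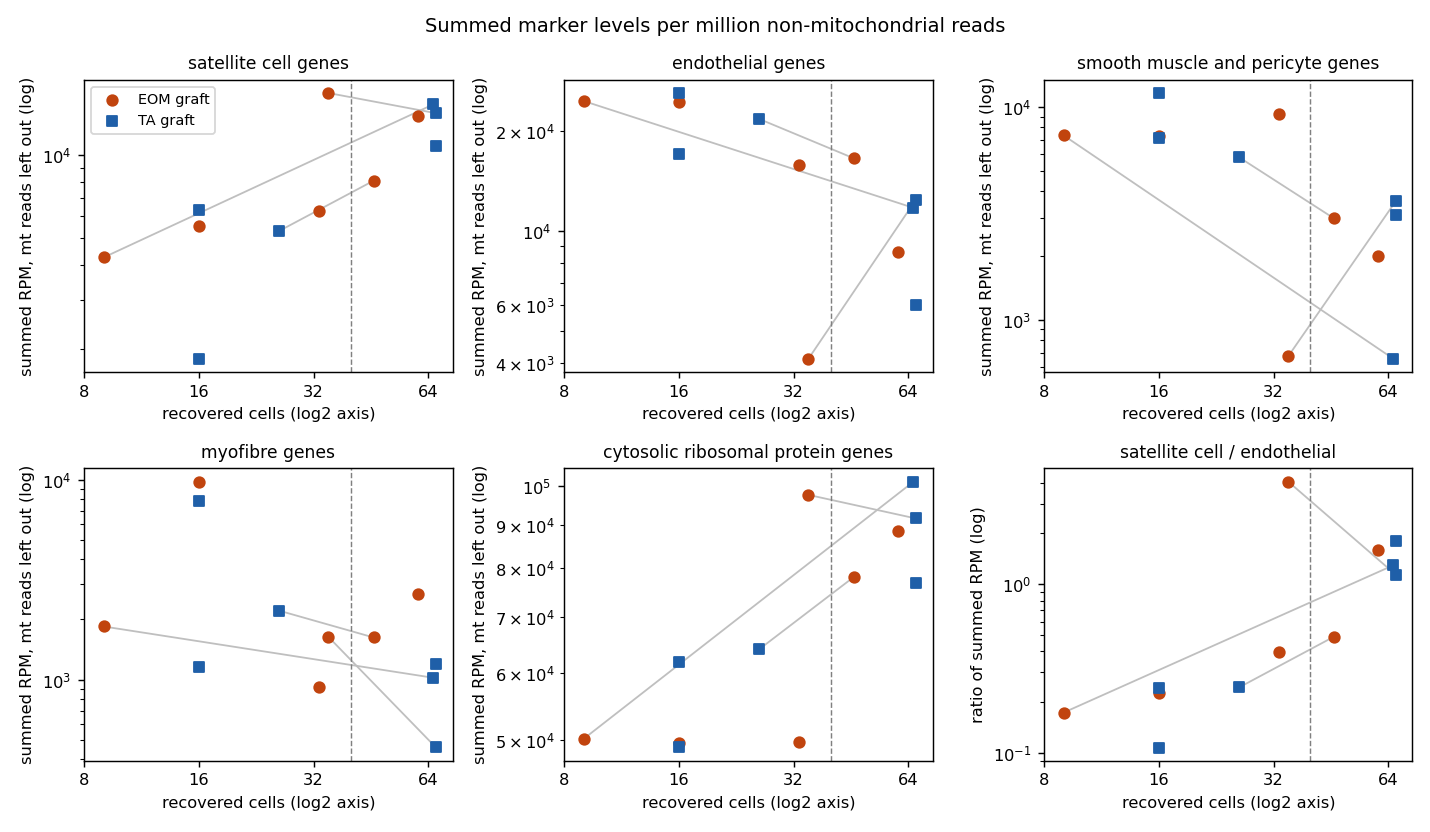
Each panel plots a summed level in non-mitochondrial RPM (log axis), or in the last panel a ratio of 2 sums (log axis), against the number of recovered cells (log2 axis) for the 12 grafts, with circles for EOM, squares for TA, grey lines joining the grafts of mice 1, 2 and 4, and a dashed line between the classes. Satellite cell and ribosomal protein sums lie lower and endothelial and smooth muscle sums higher at low cell numbers, apart from the 35-cell EOM graft, whose satellite to endothelial ratio of 4.05 is the highest of all.

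Other cell types gave no ordering by yield, or rested on single libraries. Sums are given in non-mitochondrial RPM. Fibro-adipogenic genes summed to 2769 to 10329 in low-yield and 3323 to 23711 in high-yield grafts, the highest value coming from the 46-cell EOM graft. Myofibre genes summed to 916 to 9785 in low-yield and 457 to 2671 in high-yield grafts, and the 16-cell EOM graft and the 16-cell TA graft of mouse 3 (7811) held the 2 highest values. Macrophage genes reached 2980 in the 60-cell EOM graft and 0 to 252 in the other 11. Erythroid genes summed to 3375, 9196, 5157 and 4120 in the 4 low-yield EOM grafts, 3272 in the 46-cell EOM graft and 636 in the 67-cell TA graft of mouse 2, and were at or below 8.40 in the other 6. Lymphocyte (0 to 29.3), neutrophil (0 to 53.2) and adipocyte genes (0 to 26.3) were near 0 throughout, and 5, 6 and 5 of their 12, 10 and 6 listed genes had no read in any graft. The part of these cell types in the differences below was not tested.

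The first comparison asked which genes differed between the yield classes, with origin (EOM or TA) as a covariate. Of 11798 genes tested in limma, none was called higher and none lower in low-yield grafts at an adjusted p under 0.05 and a fold change over 2. The smallest adjusted p was 0.331. At an unadjusted p under 0.05, 44 genes were higher (0.373% of those tested) and 1174 lower (9.95%). With edgeR on the recovered reads none was called either, with 283 and 342 at an unadjusted p under 0.05, and DESeq2 called 5 higher and 10 lower (0.0424% and 0.0848%). Leaving out the 35-cell EOM graft, limma called 1 gene higher and 42 lower. The median standard error of a gene's log2 difference was 1.00, and the SD among low-yield grafts exceeded that among high-yield grafts for 70.6% of the genes, with medians of 1.65 and 1.09, against 0.74 before grafting.

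The excess of lower values was smaller on other scales. The median log2 difference of all genes, low minus high, was -0.67 on the deposited scale, -0.23 with mitochondrial reads left out of the total, and -0.07 with each library centred on its median. With centred libraries 364 genes were higher and 478 lower at an unadjusted p under 0.05 (3.09% and 4.05%). Mitochondrial reads made up 24.8 to 59.6% of reads in low-yield grafts (median 33%) and 15.9 to 45.3% in high-yield grafts (median 19.3%). Differences of lists are therefore given below relative to the median of all genes.

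A single gene, Fam65b, lay above all 5 high-yield grafts in all 7 low-yield grafts (0.00848% of genes tested), and 91 genes lay below them (0.771%). In non-mitochondrial RPM these numbers were 12 and 65. Fam65b had 4.10 to 20.2 RPM in low-yield grafts, with a median of 12, and 1.75 RPM in the 46-cell EOM graft, with no read in the other 4 high-yield grafts. Its log2 difference of 3.63 (SE 1.07) had an adjusted p of 0.336 in limma and 0.0101 in DESeq2.

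Among the genes with the smallest p on the lower side were Met, Eya1, Ankrd1, Saal1, Ccl7, Clmn and Blnk, none of which overlapped between the classes and none of which passed the threshold in limma. Met, the receptor of hepatocyte growth factor, had 0 to 25.7 RPM in low-yield grafts with a median of 8.20, and 115, 63.3, 85.4, 83.4 and 75.2 RPM in high-yield grafts. All high-yield values lay above all low-yield ones, with a log2 difference of -3.75 (SE 0.88, adjusted p = 0.331). Eya1, a transcriptional coactivator in myogenic cells, had 0 to 15.1 RPM (median 2.46) against 47.3, 22.2, 32.4, 51.3 and 47.2 RPM. Its log2 difference was -4.31 (SE 1.10, adjusted p = 0.331). Ccl7, a monocyte chemokine, had 0 to 36.4 RPM (median 15.5) against 83.2, 378, 68.3, 320 and 44.0 RPM. Of these 7 genes, DESeq2 called Ankrd1 (adjusted p = 0.015), Clmn (0.0162), Saal1 (0.0179) and Ccl7 (0.0306), and did not call Met, Eya1 and Blnk.

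On the higher side the genes named by p, apart from Fam65b, overlapped between the classes. They include the smooth muscle genes Myl9, a myosin light chain, and Tagln, an actin-binding protein of smooth muscle. Myl9 had 82.8 to 1089 RPM in low-yield grafts (median 245) and 125, 28.2, 17.1, 186 and 146 RPM in high-yield grafts. Tagln had 13.1 to 332 RPM (median 54.0) against 28.9, 5.13, 0.569, 41.5 and 49.7 RPM. Npy1r, a receptor of neuropeptide Y, had reads in 6 of 7 low-yield grafts, up to 52.6 RPM, and in 1 of 5 high-yield grafts at 2.55 RPM. The others were mt-Co3, Slc38a11, Foxc1, Adcy6, Rps6kc1, Aspn, Arap2 and Tnfrsf11a, with adjusted p-values from 0.336 to 0.434 in limma. DESeq2 called Myl9 and Npy1r (adjusted p = 0.0179 each).

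The second comparison used the cell number itself, since 9 and 35 cells lie in the same class. A straight line over log2 of the cell number, with origin as a covariate, was fitted to each gene, and values are the log2 difference for 4-fold fewer cells, such as 16 against 64. On the deposited scale 1 of 11798 genes was called higher (mt-Co3, 0.00848%) and 217 lower with fewer cells (1.84%). Leaving out mitochondrial reads, 4 were higher and 48 lower (0.0339% and 0.407%), and with libraries centred on their median 4 and 18 (0.0339% and 0.153%). All 48 and all 18 are among the 217. At an unadjusted p under 0.05, 80 genes were higher and 2240 lower on the deposited scale (0.678% and 19.0%). DESeq2 called 118 higher and 186 lower (1.00% and 1.58%), of which 132 of the lower are shared with the 217, or 60.8% of the 217 and 71.0% of the 186. The median of all genes was -0.80, -0.19, -0.03 and -0.02 in these settings.

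These calls depend on the test and on single libraries. With edgeR no gene was called (smallest adjusted p 0.0745), with 583 higher and 732 lower at an unadjusted p under 0.05. With the donor mouse as a fixed replicate block, which compares only the grafts of the same mouse, limma called none, with 82 and 948 at an unadjusted p under 0.05, while a random block gave 0 and 231. Without the EOM grafts of 9, 46 and 60 cells, 47, 97 and 520 genes were lower. Without the TA grafts of 16 (mouse 3), 16 (mouse 6), 66, 67 (mouse 2) and 67 cells (mouse 5) the numbers were 68, 479, 101, 60 and 91. The cell numbers in the study's sample table, which are larger for the TA grafts of mice 4 and 5, gave 111. Of the 217 genes, 22 were called in each of the 12 fits that leave out 1 library. In 4 settings (deposited scale, mitochondrial reads left out, centred libraries, DESeq2) the same 18 genes were lower, and those named here are described next.

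Pax7 (ENSMUSG00000028736, GRCm38 chromosome 4, 139737062 to 139833530) was the only one of the 15 satellite cell genes among the 18. It had 10.3, 34.6, 80.7 and 268 RPM in the EOM grafts of 9, 16, 33 and 35 cells, and 235 and 102 RPM in those of 46 and 60 cells. In the TA grafts it had 9.02 and 106 RPM at 16 cells (mice 3 and 6), 106 at 26 cells and 302, 553 and 157 RPM at 66, 67 and 67 cells. In EOM grafts the level was higher at each larger cell number up to 35 cells and lower again at 46 and 60 cells, and the classes overlapped. For 4-fold fewer cells Pax7 was lower by a log2 difference of -3.04 (SE 0.61, adjusted p = 0.00826 in limma), of -2.26 with centred libraries (adjusted p = 0.0372) and of -2.19 in DESeq2 (adjusted p = 0.000128). It was called in 11 of the 12 fits without a library, and with the fixed replicate block its difference was -2.80 (adjusted p = 0.427). Before grafting the 12 libraries had 79.3 to 1302 RPM of Pax7 with a median of 474.

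Musk, the receptor kinase that organises the neuromuscular synapse, had 14.8 to 729 RPM in low-yield grafts (median 64.4) and 288, 285, 429, 598 and 672 RPM in high-yield grafts. All low-yield grafts but the 35-cell one lay below every high-yield graft, and the difference for 4-fold fewer cells was -3.23 (SE 0.53, adjusted p = 0.00214). Runx1, a transcription factor that muscle expresses after denervation, had 25.4 to 335 RPM (median 60.6) against 304, 202, 245, 427 and 296 RPM. Its difference was -2.68 (SE 0.50, adjusted p = 0.00557). Cd82, a tetraspanin of the MuSC surface, had 55.0 to 2002 RPM (median 333) against 1225, 505, 881, 1141 and 1220 RPM. Its difference was -3.05 (SE 0.50, adjusted p = 0.00219), and as for Musk and Runx1 the highest low-yield value came from the 35-cell EOM graft.

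Asb5, a subunit of a ubiquitin ligase, had the smallest p of all genes. It had 100, 600, 1089 and 6175 RPM in the EOM grafts of 9, 16, 33 and 35 cells and 232, 311 and 884 RPM in the low-yield TA grafts. In the high-yield grafts it had 3517, 1860, 2745, 4503 and 5365 RPM, above all low-yield grafts but the 35-cell one. The difference for 4-fold fewer cells was -3.64 (SE 0.49, adjusted p = 0.000321), and it was called in each of the 12 fits without a library. Kremen1, a receptor of the Wnt inhibitor Dickkopf, was the only one of the 18 without overlap between the classes, with 3.28 to 123 RPM in low-yield grafts (median 20.2) and 220, 156, 155, 126 and 136 RPM in high-yield grafts. Its difference was -3.66 (SE 0.63, adjusted p = 0.00355). In contrast to the other genes described, its 35-cell value of 123 RPM lay within the order of the cell numbers.

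The others of the 18 that are named here have varied functions. Hk2 is a hexokinase. Ddx56 and Nhp2 act in ribosome assembly, F2r is the thrombin receptor, Pdpn a membrane mucoprotein and Dpt a matrix protein of fibroblasts. Hk2 had 3.45 to 298 RPM in low-yield grafts (median 17.0) and 114, 110, 112, 221 and 136 RPM in high-yield grafts, with a difference of -3.92 (SE 0.63, adjusted p = 0.00174). Without the 35-cell EOM graft its low-yield values end at 70.7, below all high-yield grafts. Chodl, Abhd2, Zhx3, Fam132b and Tagap1 also belong to the group. The differences of these genes lay between -2.41 (Zhx3) and -5.35 (Tagap1) on the deposited scale and between -1.64 and -4.58 with centred libraries.

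**Figure D2:**
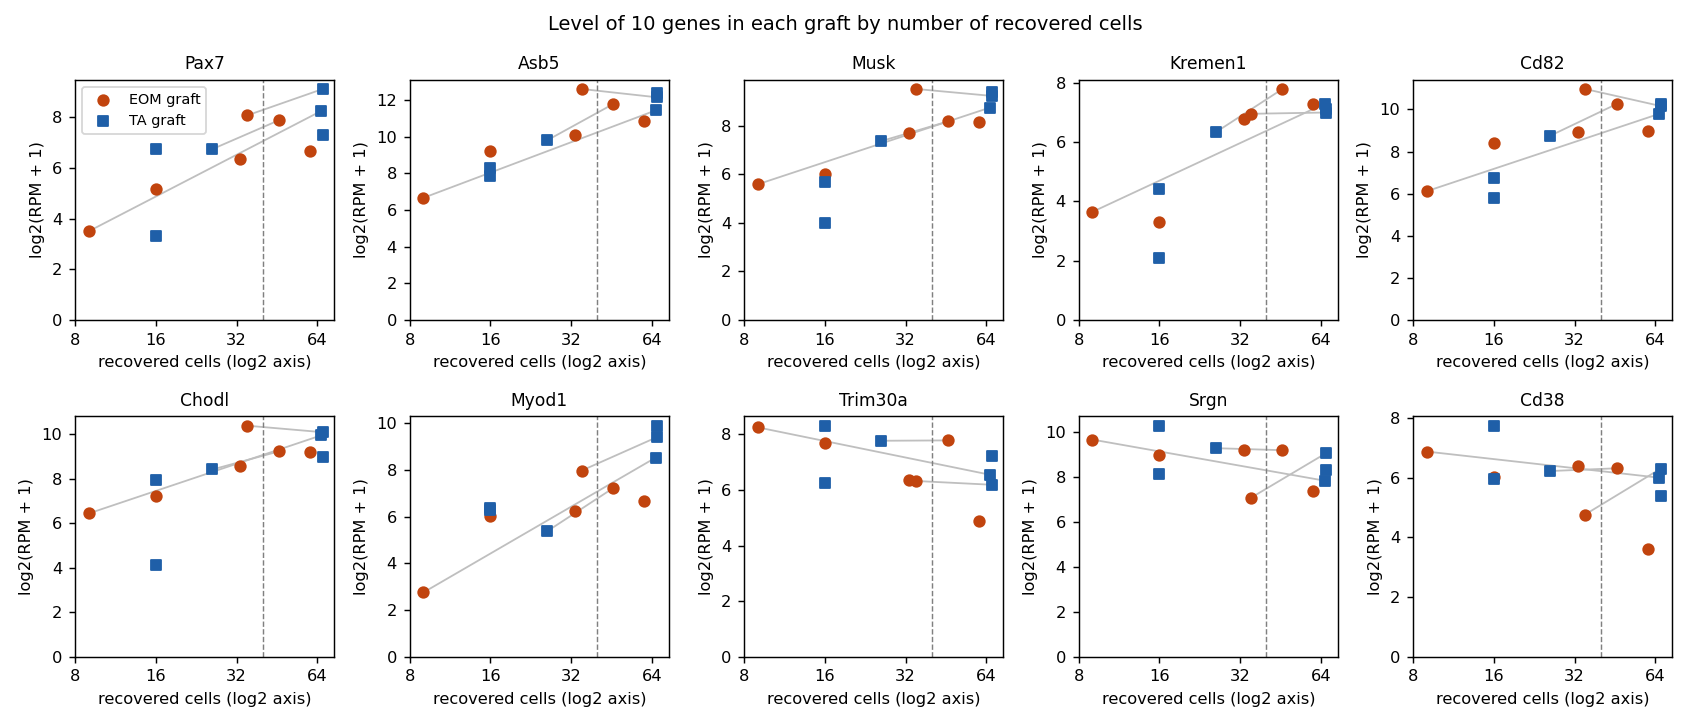
The level of 10 genes as log2(RPM + 1) is plotted against recovered cells (log2 axis) for the 12 grafts, with circles for EOM, squares for TA, grey lines joining the grafts of mice 1, 2 and 4 and a dashed line between the classes. Pax7, Asb5, Musk, Kremen1, Cd82, Chodl and Myod1 lie lower at low cell numbers, while Trim30a, Srgn and Cd38 show the opposite slope.

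Of the 15 satellite cell genes, all tested, 14 had a negative slope on the deposited scale, where 76.8% of all genes did, and 10 had one with mitochondrial reads left out or with centred libraries (57.4% and 51.1% of all genes). On the deposited scale 6 were called lower (Pax7, Myf5, Cdh15, Sdc4, Des and Fgfr4), where 1.84% of all genes were. The call was kept by 3 with mitochondrial reads left out (Pax7, Sdc4 and Des), by Pax7 alone with centred libraries, and by 4 in DESeq2 (Pax7, Myf5, Sdc4 and Des). With centred libraries 5 of the 15 slopes were positive. At an unadjusted p under 0.05 in limma, 8 genes were then lower and 1 higher (7.65% and 6.36% of all genes). The median of the list was -2.20, which is -1.39 relative to all genes. Sdc4, a heparan sulfate proteoglycan of MuSCs, had a median of 1188 and a highest value of 5801 RPM in low-yield grafts and 2437, 2992, 5718, 5880 and 4288 RPM in high-yield grafts, with a difference of -2.59 (SE 0.58, adjusted p = 0.0202). Des, the intermediate filament desmin, had 60.7 to 1414 RPM (median 441) against 1288, 828.8, 717, 1823 and 1175 RPM, with a difference of -2.20 (SE 0.50, adjusted p = 0.0208). Vcam1 (-1.74, adjusted p = 0.105) and Cd34 (-0.56, adjusted p = 0.564) did not pass. Cd34, which endothelial cells also express, lay above the median of all genes.

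Myf5 had 5.74 to 323 RPM in low-yield grafts (median 107) and 143, 286, 765 and 295 RPM in 4 high-yield grafts. The fifth, the 46-cell EOM graft, lay just below the low-yield median. The difference of -2.96 (SE 0.67) had an adjusted p of 0.0204. With mitochondrial reads left out it was 0.0553. Myod1 had 5.75 to 251 RPM (median 73.9) against 150, 102, 369, 683 and 956 RPM, with a difference of -3.14 (SE 0.57, adjusted p = 0.00557). With mitochondrial reads left out its adjusted p was 0.0576, and with centred libraries 0.0907. Myog had no read in any graft, which allows at most 3 reads per library, and of 9 measured genes of differentiating myoblasts 2 could be tested. Of these Chrna1, a subunit of the acetylcholine receptor, had 0 to 127 RPM in low-yield and 63.1, 24.8, 39.3, 39.4 and 1.91 RPM in high-yield grafts (-4.09, adjusted p = 0.0548 in limma and 0.0491 in DESeq2), and Cdkn1c did not differ detectably (0.13, adjusted p = 0.901).

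No gene of the lists for other cell types was called higher in limma under the 3 scalings, and the direction of the slopes differed between the lists. With centred libraries, 14 of 14 endothelial genes had a positive slope and 12 reached an unadjusted p under 0.05, where 6.36% of all genes did. The list median was 1.29, and 1.32 relative to all genes on the deposited scale. Cdh5, the adherens junction cadherin of endothelium, had 89.9 to 403 RPM in low-yield grafts (median 252) and 257, 52.2, 166, 313 and 58.0 RPM in high-yield grafts. Its difference was 1.63 with centred libraries (adjusted p = 0.0835) and 1.45 in DESeq2 (adjusted p = 0.0207). DESeq2 also called Ly6c1 (1.38, adjusted p = 0.0287), Fabp4 (1.20, adjusted p = 0.0421) and Eng (1.14, adjusted p = 0.0498).

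Of 9 smooth muscle and pericyte genes tested, all had a positive slope, 7 reached an unadjusted p under 0.05 with centred libraries, and the median was 2.60 relative to all genes. Rgs5, a pericyte regulator of G protein signalling, had 192 to 4410 RPM in low-yield grafts (median 2402) and 1662, 458, 244, 2366 and 1703 RPM in high-yield grafts. Its difference of 2.00 with centred libraries had an adjusted p of 0.161. DESeq2 called Tagln (2.75, adjusted p = 0.0118) and Acta2 (2.18, adjusted p = 0.021). Of 19 myofibre genes 8 reached an unadjusted p under 0.05 on the higher side with centred libraries, with a median of 1.56 relative to all genes, and DESeq2 called Ckm, Tnnt3, Mylpf and Mb. Mylpf, a fast myosin light chain, had 44.5 to 185 RPM in low-yield grafts (median 78.9) and 52.6, 64.1, 24.5, 29.5 and 30.0 RPM in high-yield grafts.

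Fibro-adipogenic genes lay on the lower side, with 12 of 13 slopes negative on the deposited scale, where 76.8% of all genes were negative. With centred libraries 11 of 13 were negative (51.1% of all genes), and the median was -1.27 relative to all genes. Gsn, an actin-severing protein, and Dpt were called on the deposited scale, where 1.84% of all genes were called lower. The differences were -2.49 for Gsn (SE 0.57, adjusted p = 0.0208) and -2.50 for Dpt (SE 0.51, adjusted p = 0.00866). With mitochondrial reads left out, Dpt kept its call (adjusted p = 0.0221) and Gsn did not (0.089). Before grafting they had medians of 1748 and 1420 RPM in the pre-graft libraries. Dpt had 31.2 to 818 RPM in low-yield grafts (median 231) and 836, 446, 510, 635 and 426 RPM in high-yield grafts. Of 6 macrophage genes tested none was called and the median was -1.91 relative to all genes. Lyz2, the macrophage lysozyme, had 595 RPM in the 60-cell EOM graft and at most 99.6 RPM elsewhere. Schwann cell genes had 8 of 8 slopes positive, with a median of 2.16 relative to all genes and of 2.91 in DESeq2, where the smooth muscle and pericyte list lay at 2.20. None was called in limma, and DESeq2 called Pmp22, a myelin protein gene (1.17, adjusted p = 0.0499), whose difference was -0.30 with the fixed replicate block. The 4 tenocyte and 3 erythroid genes tested had no call.

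All 82 cytosolic ribosomal protein genes tested had a negative slope on the deposited scale, where 76.8% of all genes did. Their median was -1.30, which is -0.50 relative to all genes, and none was called in limma. With centred libraries 80 were negative and 39 reached an unadjusted p under 0.05, where 7.65% of all genes did. Rps4x, a subunit protein of the small ribosome, had 317 to 2206 RPM in low-yield grafts (median 1087) and 2217, 1191, 2537, 3145 and 2113 RPM in high-yield grafts, with a centred difference of -0.81 (SE 0.22, adjusted p = 0.124). The summed level of the 85 listed genes in non-mitochondrial RPM was 48994 to 64059 in 6 low-yield grafts and 97616 in the 35-cell EOM graft, against 76809 to 101185 in high-yield grafts. DESeq2 called Rpl10a and Rpl7l1 lower. Members of this family have many near-identical pseudogenes, so single members are uncertain.

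The 13 mitochondrially encoded genes all had a positive slope, with a median of 1.44 relative to all genes, and mt-Co3 was called on the deposited scale (2.25, SE 0.60, adjusted p = 0.0427). It had 198 to 8437 RPM in low-yield grafts (median 821) and 155, 375, 317, 115 and 386 RPM in high-yield grafts, the highest value coming from the 16-cell EOM graft. Its call was lost in 7 of the 12 fits without a library. The abundant mt-Co1 had 152659 to 316358 RPM in low-yield grafts (median 217817) and 113864, 271114, 189900, 109948 and 121357 RPM in high-yield grafts, with overlapping classes and an adjusted p of 0.761. The 24 nuclear genes of oxidative phosphorylation had a median of 0.00 relative to all genes and no call. Of 16 glycolysis genes, with a median of 0.39 relative to all genes, Hk2 was called lower, and the glucose transporter gene Slc2a1 was called lower in DESeq2 (-1.08, adjusted p = 0.0467) and had 12.3 to 149 RPM in low-yield and 168 to 283 RPM in high-yield grafts.

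Interferon-induced genes lay on the higher side relative to all genes. Of 37 tested, 33 had a positive slope with centred libraries, 15 reached an unadjusted p under 0.05 on that side, and the median was 1.06 relative to all genes. On the deposited scale 23 were positive and none was called. Trim30a, an interferon-induced ubiquitin ligase, had 74.6 to 318 RPM in low-yield grafts (median 206) and 220, 28.2, 92.8, 72.0 and 148 RPM in high-yield grafts. Its difference was 1.29 on the deposited scale (adjusted p = 0.186), 1.90 with mitochondrial reads left out (SE 0.36, adjusted p = 0.0327) and 1.93 in DESeq2 (adjusted p = 0.000415). Isg15, Mx2 and Rsad2 were called in DESeq2 only. Trim30a, Srgn, a proteoglycan of blood and endothelial cells, and Cd38, an NAD-degrading surface enzyme, were the 3 genes higher in all 3 settings other than the deposited scale, with 1.90, 1.67 and 1.88 when mitochondrial reads were left out. All 3 overlapped between the classes, and with the fixed replicate block Trim30a had a difference of 1.39 (adjusted p = 0.619).

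MHC class I (10 genes tested), early response (22), heat shock (13), p53 target (12) and cell cycle genes (9) had no limma call, with medians relative to all genes of 0.85, 0.20, 0.16, 0.63 and 0.41. Fos, an early response factor, had 273 to 1974 RPM in low-yield grafts (median 830) and 1220, 789, 2167, 1924 and 1611 RPM in high-yield grafts, with an adjusted p of 0.239. Ier3 was called higher and Sesn2 lower in DESeq2 only. Of 13 Notch genes the receptor Notch2 was called lower on the deposited scale (-2.02, SE 0.54, adjusted p = 0.0433), and of 15 genes of the niche matrix the laminin chain Lama2 (-3.05, SE 0.66, adjusted p = 0.0161). Neither call was kept with mitochondrial reads left out (adjusted p = 0.138 and 0.102). Of 10 limb position genes, 2 were expressed enough to be tested (Tbx1 and Hoxc9), and neither was called.

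**Figure D3:**
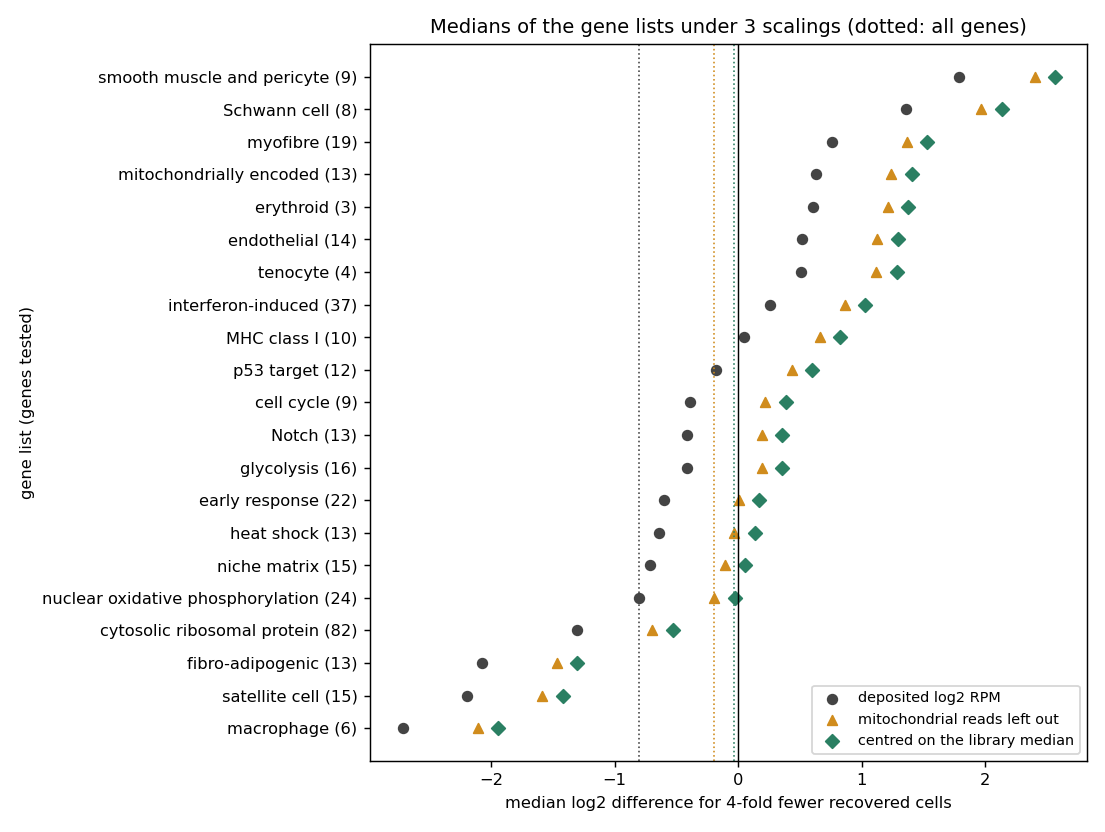
Points give the median log2 difference for 4-fold fewer recovered cells over the tested genes of each list, under 3 scalings of the 12 grafts, and dotted lines the median of all 11798 genes in the same scaling. A scaling shifts all lists alike, so their order is fixed across the 3 scalings, and on the deposited scale it runs from smooth muscle and pericyte genes (1.79) to macrophage genes (-2.72), with satellite cell genes at -2.20.

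Measures of whole libraries overlapped between the classes on the deposited scale. The mitochondrial share differed by 9.61 percentage points, low minus high (exact permutation within origin, two-sided, p = 0.23, adjusted over 8 measures 0.724). At equal depth, low-yield grafts had 8749 to 11903 genes with a read (median 10171) and high-yield grafts 10194 to 11273 (median 11230), a difference of -561 (exact permutation p = 0.367). The rRNA share was 1.24 to 9.44% against 0.567 to 2.35%, with the highest value in the 16-cell EOM graft (exact permutation p = 0.633). The shares of reads in exons and in genes and the total of reads gave exact permutation p-values of 0.727, 0.62 and 0.393. The 300 assignments within origin allow a smallest p of 0.00333, and all 8 measures overlapped between the classes.

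**Figure D4:**
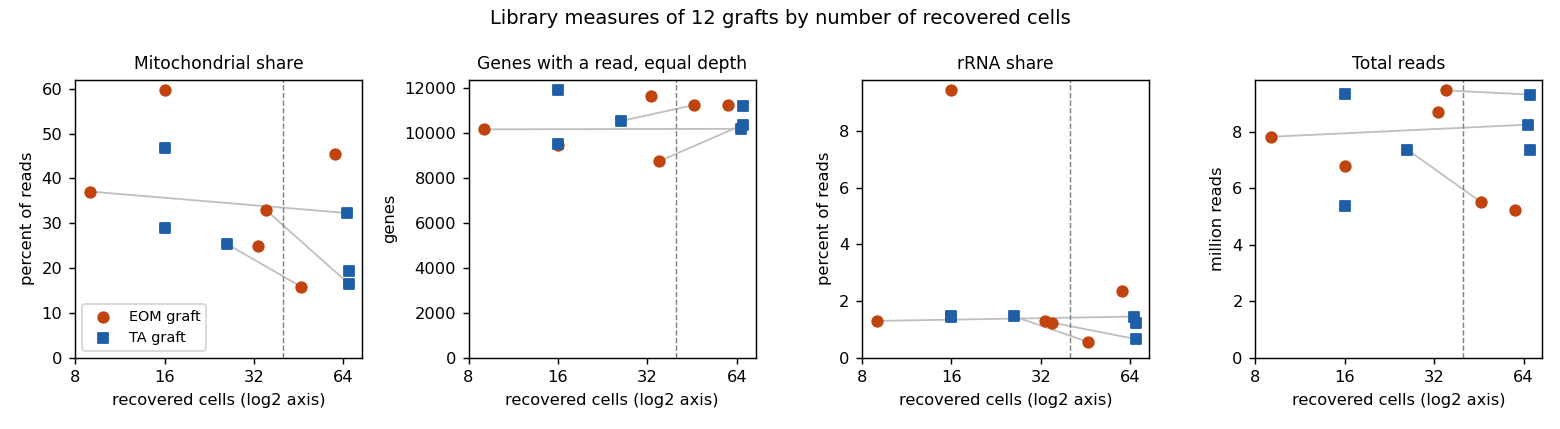
The mitochondrial share, the number of genes with a read at equal depth, the rRNA share and the total of reads are plotted against recovered cells (log2 axis) for the 12 grafts, with circles for EOM, squares for TA, grey lines joining the grafts of mice 1, 2 and 4 and a dashed line between the classes. The classes overlap in every panel, and the 16-cell EOM graft has the highest mitochondrial (59.6%) and rRNA share (9.44%).

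In a principal component analysis of the tested genes, PC1 held 20.7% of the variance. Low-yield grafts lay at -148 to 95.8 (median -38.7) and high-yield grafts at -8.19 to 98.1 (median 60.7), a difference of -103 (exact permutation p = 0.06, adjusted over 8 measures 0.48). Without the 35-cell EOM graft, which holds the highest low-yield position, the difference was -120 (exact permutation, unadjusted p = 0.015). Without the 16-cell TA graft of mouse 3 it was -62.5 (exact permutation, unadjusted p = 0.28), and without the 60-cell EOM graft -129. With mitochondrial reads left out of the total the PC1 difference was -39.7 (exact permutation p = 0.477). PC2 (16.4%) gave a p of 0.58 in the exact permutation test on the deposited scale. With mitochondrial reads left out the classes differed by -76.5 on PC2 (exact permutation p = 0.0167), and with centred libraries by 64.4 (exact permutation p = 0.05), neither adjusted over measures. The sign of a component is arbitrary and its genes differ between scalings. Pearson correlations of log2 RPM between libraries had a median of 0.646 among low-yield grafts (0.496 to 0.683), 0.690 among high-yield grafts (0.676 to 0.720) and 0.641 between the classes, against 0.810 among pre-graft libraries. The ranges of the 21 low-yield and 10 high-yield pairs overlap, and pairs share libraries.

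**Figure D5:**
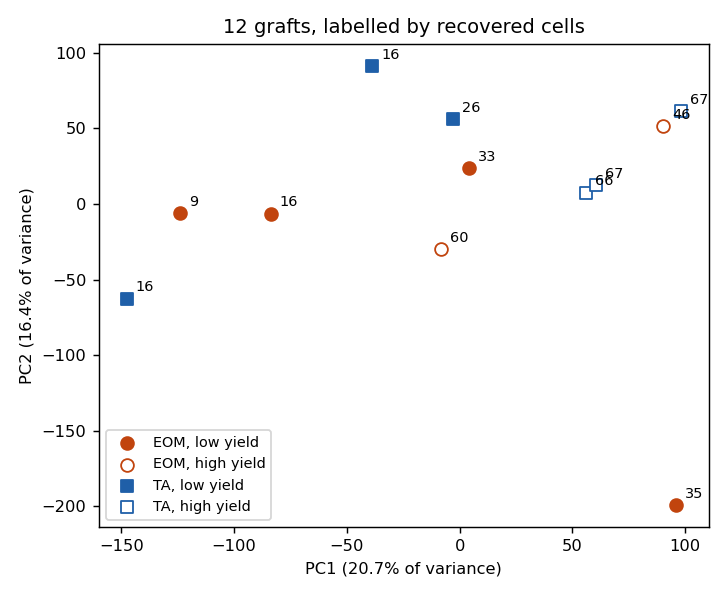
The 12 grafts are placed on PC1 (20.7% of variance) and PC2 (16.4%) of their log2 RPM values and labelled by the number of recovered cells, with filled symbols for low yield, open symbols for high yield, circles for EOM and squares for TA. The high-yield grafts lie between -8.19 and 98.1 on PC1, the grafts of 9 and 16 cells at negative values, and the 35-cell EOM graft apart at -199 on PC2.

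The pre-graft libraries of the same donor muscles, each of 500 cells, were compared by the class of the later graft. Of 12781 genes tested none was called by limma in either direction (0% of genes), with 47 higher and 628 lower at an unadjusted p under 0.05, and edgeR (187 and 185) and DESeq2 (300 and 295) called none with a fold change over 2. A line over the cell number of the later graft gave no call in limma either, with 38 higher and 518 lower at an unadjusted p under 0.05. Pax7 (log2 difference -0.49, adjusted p = 0.807) and Asb5 (-0.31, adjusted p = 0.821) did not pass. The median of the satellite cell genes was 0.05 and that of the endothelial genes -0.24 relative to all genes. The fibro-adipogenic genes lay at -1.03 relative to all genes before grafting, with 12 of 12 negative, where 74.4% of all genes were. In the grafts the fibro-adipogenic genes lay at -0.38 between the classes and at -1.27 for 4-fold fewer cells, which is another measure. The mitochondrially encoded genes lay at 1.25 before grafting, with 13 of 13 positive, and at 1.25 between the classes in the grafts. Interferon-induced genes lay at 0.49 before grafting (25 of 37 positive) and at 0.40 between the classes in the grafts. For Schwann cell genes these values were 0.75 (7 of 8) and 0.95, and for myofibre genes 0.69 (12 of 18) and 1.12. Ribosomal protein genes lay at -0.15, with 81 of 82 negative, and at -0.39. Smooth muscle and pericyte genes lay at 0.18 and 1.57. What links these values was not tested.

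Whether the yield difference itself differed between EOM and TA grafts was tested as an interaction. None of 11798 genes was called in limma (0%), with 138 and 119 at an unadjusted p under 0.05, and none in edgeR (170 and 155), while DESeq2 called 7. These are Dkk2, Adcy7, Tusc5, Tmem100, Fst, Arf3 and Wdr55, named after their values were seen, each with an adjusted p of 0.999 in limma. Without the 46-cell EOM graft limma called 1 gene. The interaction of origin with the line over cell number gave no call, with 187 and 164 at an unadjusted p under 0.05. Within EOM alone and TA alone the lines called 43 and 37 genes lower and 1 higher each, and 32 and 31 of the lower ones are among the 217.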

How the data were processed

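RNA was made into polyA libraries by the G&T-seq protocol and sequenced on a HiSeq 2500. Per the labels and the study's methods, the authors trimmed reads with Trim Galore 0.4.4, mapped them with HISAT2 2.1.0 to GRCm38 and deposited one log2 RPM value per gene from Seqmonk, counted without regard to strand. The deposited quality table gives read counts and percent values per library, and these were used as given. Every column of per-sample values was matched to a sample by its name (0 columns unused).

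Of 25899 genes, the 11798 with log2 RPM above 1 in at least 4 of the 12 grafts were tested in limma 3.58.1 (R 4.3.3), with the class (low minus high) or log2 of the cell number, and origin, as terms. A call needed a Benjamini-Hochberg adjusted p under 0.05 and a log2 difference beyond 1. Whole reads were recovered from the RPM steps (99.983% of values within 0.05 read), a gene without reads standing at 0.9 read in the deposited scale, and tested with edgeR 4.0.16 and DESeq2 1.42.0. Single library measures were tested by exact permutation within origin (scipy 1.17.1). Genes at equal depth were counted after thinning to 257139 non-mitochondrial reads. The class fits were also run on simulated reads with the same spread for all genes and both classes. That simulation did not cover the line over cell number or the larger spread of the low-yield grafts.

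EOM and TA grafts of a number share donor and recipient by design, while their deviations from the group means correlated between -0.050 and 0.022 over 6 pairs (consensus correlation 0.134). Named genes are, per direction of the class comparison, up to 12 called or smallest in p, the 4 most abundant and any called members of each list, and Pax7, Myf5, Myod1 and Myog. The other genes called with cell number in 3 or 4 settings were named after their values were seen. The classes, lists and genes were chosen with earlier results of these data known. The bisulfite libraries were not used here. Some genes that meet these rules are not reported here.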

Additional observations from a re-analysis of the deposited data

Results flagged for a closer look

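Among 57 measures of the 4 low-yield EOM grafts, 9 had 1 library far from the other 3, or 15.8%. The 57 are 8 library measures, 26 list sums and 23 gene levels. They come from the same 4 libraries, and some of the genes were named after their values were seen. No rate by chance is therefore set beside the 15.8%. In 6 of the 9 it was the 35-cell graft of mouse 2. It lay at -199 on PC2, the lowest of the 4. It had a tenocyte sum of 577 RPM, 6175 RPM of Asb5, 116 RPM of Ddx56, 345 RPM of Nhp2 and 125 RPM of Tagap1, each the highest of the 4. The 16-cell graft of mouse 3 had an rRNA share of 9.44% and a myofibre sum of 3166 RPM. The 9-cell graft of mouse 4 had an adipocyte sum of 10.3 RPM, against at most 1.57 RPM in the other 3. The cause of these values was not tested.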

How the results depend on the processing

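The settings tried on the line over cell number, and edgeR and DESeq2 on the interaction and on the pre-graft libraries, were chosen after seeing the data. Between the classes, DESeq2 called 5 genes higher and 10 lower, the line over cell number 1 and 217, grafts of at most 26 against at least 60 cells 1 and 9, TA grafts alone 1 lower, and fits without 1 library 0 to 1 higher and 0 to 42 lower. The other settings gave 0. The replicate block changed no call between the classes (0 and 0). For the line over cell number, calls higher and lower were 0 and 0 with the fixed replicate block, 0 and 231 with the random block, 4 and 48 without mitochondrial reads, 4 and 18 with centred libraries, 2 and 244 with RPM plus 1, 0 and 0 in edgeR, 118 and 186 in DESeq2, 0 and 111 with the table's cell numbers, 43 lower in EOM alone, 37 lower in TA alone, and 0 to 2 and 47 to 520 without 1 library. For the interaction DESeq2 called 7 genes and fits without 1 library 0 to 1.

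Among library measures, the difference in genes at equal depth was 51.7 in TA alone. The exon share differed by -0.61 in EOM alone and by -0.349 to 2.00 without 1 library, and the gene share by 0.628 and by -3.07 to 0.102. Total reads differed by -12684 between the extremes, 2825707 in EOM alone and -939426 in TA alone. PC1 differed by -129 to -62.5 without 1 library, -120 between the extremes and -9.78 in EOM alone. PC2 differed by -74.5 to 59.4 without 1 library, 75.5 between the extremes, -118 in EOM alone, 65.8 in TA alone, -76.5 without mitochondrial reads and 64.4 with centred libraries, the sign of a component being arbitrary.

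Of 1122 values of 51 genes over cell number, 920 kept direction and call, 153 lost the call, 44 gained one and 5 turned: Pmp22 (-0.30 with the fixed replicate block), Eng (-0.11) and Mx2 (-0.010) in TA alone, Acta2 (-0.069 to 1.74) and Mx2 (-0.000155 to 0.57) without 1 library. Of 701 values of 27 genes between the classes, 666 kept their call and 35 gained one. Of 546 list medians, 531 moved by less than their spread. The cause was not tested. The 16-cell TA graft of mouse 3, with 257139 reads outside mitochondria, limits low genes most, and intervals between libraries rest on 7 and 5 grafts.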
